A study of Homo sapiens with 6 samples.

Results

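Heat shock proteins are the chaperones that hold, fold and refold other proteins, and the 10 genes described here encode the main cytosolic and mitochondrial ones with their cochaperones. They were chosen by name and were all found among the 23284 gene symbols in the FPKM tables. The inducible members are HSPA1A, HSPA1B, DNAJB1 and HSPH1, and the constitutive members are HSPA8, HSP90AA1, HSP90AB1, HSPD1, HSPE1 and HSPB1. Poly(A)-selected RNA was sequenced from 3 control and 3 lyophilized samples of GM12873, a B-lymphoblastoid cell line, all from this 1 line. The control cells were washed and put into TRIzol without drying, while the lyophilized cells were freeze-dried in 0.1 M trehalose, kept at room temperature for 2 weeks and then put into TRIzol. Each lyophilized sample was labelled as paired to 1 control sample, which gave pairs 1, 2 and 3. The comparison asked whether transcript levels of these genes were kept in the dried and stored cells, and whether the inducible and the constitutive members behaved alike.

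HSP70 proteins such as HSPA8 and HSPA1A bind unfolded stretches of client proteins and release them in cycles of ATP hydrolysis, which DNAJ proteins start and HSP110 proteins such as HSPH1 turn over by nucleotide exchange. HSP90 proteins act later on clients such as kinases and receptors, HSPD1 and HSPE1 form the folding chamber of mitochondria, and HSPB1 is a small heat shock protein that keeps unfolded proteins from aggregating. Under heat or other proteotoxic stress, the transcription factor HSF1 binds heat shock elements, which are repeats of GAA and its complement TTC in alternating orientation, and raises transcription of these genes. Inducible members are usually the ones that this response raises most.

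The promoters were searched for such elements to show what the members share beyond their names. In the RefSeq promoter table for GRCh38.p14, which covers 250 bases before to 50 bases after each start, the 10 members have 16 of the 35116 promoters. The letters GAANNTTC, with N standing for any base, were found for 8 of the 10 members, in 9 of their 16 promoters, and in 6.77% of all promoters (8.21% of all genes). The letters TTCNNGAA were found for 4 members, in 4 of the 16 promoters, and in 7.74% of all promoters (9.46% of all genes). Each of these motifs is its own reverse complement, so that a search of 1 strand covers both. The longer forms GAANNTTCNNGAA and TTCNNGAANNTTC, in which the shorter motifs overlap, were found for HSPA8, HSP90AA1, HSP90AB1 and HSPD1, in 4 of the 16 promoters, and in 0.49% of all promoters (0.608% of all genes). One window of each member with a match is given on the strand of the gene, with the matched letters in capitals. Where a member had several matches, the longest was taken and among equals the one nearest to the start.
HSPA1A, chr6:31815426-31815455, plus strand: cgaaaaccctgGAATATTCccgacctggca
HSPA1B, chr6:31827622-31827651, plus strand: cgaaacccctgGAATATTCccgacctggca
DNAJB1, chr19:14518426-14518455, minus strand: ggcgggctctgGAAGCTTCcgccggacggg
HSPA8, chr11:123062170-123062199, minus strand: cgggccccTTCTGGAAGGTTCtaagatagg
HSP90AA1, chr14:102087111-102087140, minus strand: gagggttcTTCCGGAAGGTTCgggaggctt
HSP90AB1, chr6:44247823-44247852, plus strand: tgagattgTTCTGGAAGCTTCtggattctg
HSPD1, chr2:197500059-197500088, minus strand: attttctgGAAAGTTCTGGAAccgagcgag
HSPB1, chr7:76302480-76302509, plus strand: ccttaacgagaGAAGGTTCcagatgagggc
The match began 106 bases before the start of HSPA1A and 105 bases before that of HSPA1B, and the windows of these genes carry the same 8 capital letters. It began 47 bases before the start of DNAJB1, 55 before HSPA8, 88 before HSP90AA1, 112 before HSP90AB1, 182 before HSPB1 and 240 before HSPD1. HSPD1 and HSPE1 lie head to head, and the HSPD1 match lies 299 bases before the start of HSPE1, outside the window searched for that gene. No match lay in the windows of HSPE1 and HSPH1, which says only that these letters are not in the bases searched.

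The deposited values are FPKM (fragments per kilobase of transcript, scaled to the number of mapped reads), so that levels can be compared between genes per length. No read counts are in the tables. From the steps between the lowest values, the other 5 samples were read at 1.38 to 1.89 times the depth of control 1, which was the shallowest, and lyophilized sample 1 was the deepest. Of the B-cell marker list, 1 gene is not reported, and the other 7 (among them MS4A1, CD79A and PAX5) were above 1 FPKM in every sample, and summed to 4532 to 6216 FPKM in the controls and 4505 to 6192 FPKM in the lyophilized samples. All 8 markers of other cells were below 1 FPKM in every sample. They summed to 0.644 to 0.899 FPKM in the controls and 0.542 to 0.723 FPKM in the lyophilized samples, and HBB and ALB were listed at 0 throughout. In bulk samples, fewer cells of a type and less RNA per cell cannot be told apart.

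By the classes used here, every constitutive member had a higher mean level than every inducible one as listed. This would not hold with HSP90AA1 and HSPB1 counted as inducible, since both lay above HSPE1. HSPA8, the constitutive cytosolic HSP70, was the highest in the controls with a mean of 724 ± 246 FPKM (SD, n = 3). HSP90AB1, the constitutive HSP90, was next after HSPA8 at 551 ± 150 FPKM, followed by its stress-responsive paralogue HSP90AA1 at 292 ± 170 FPKM. The mitochondrial chaperonin HSPD1 had 259 ± 110 FPKM, HSPB1 194 ± 14 FPKM and the cochaperonin HSPE1 113 ± 49 FPKM. The inducible members followed, with HSPH1 at 41.9 ± 24.2 FPKM and DNAJB1 at 20.6 ± 5.1 FPKM. HSPA1A and HSPA1B were listed lowest, at 14.3 ± 5.0 and 14.2 ± 5.8 FPKM. Most of their sequence is shared between them and reads from the shared part were not kept, so these levels can be understated and their place in the order is not certain. The ranges of all neighbours in this order overlapped over the 6 samples. Within a sample, HSPA8 was above HSP90AB1, HSP90AB1 above HSP90AA1, HSPE1 above HSPH1, HSPH1 above DNAJB1 and DNAJB1 above HSPA1A in 6 of 6 samples. HSP90AA1 was above HSPD1 in 4 samples, HSPD1 above HSPB1 in 5 and HSPB1 above HSPE1 in 5. HSPA1A was above HSPA1B in 2 samples, and their log2 ratio of 0.0092 was smaller than its SD of 0.10.

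**Figure D1:**
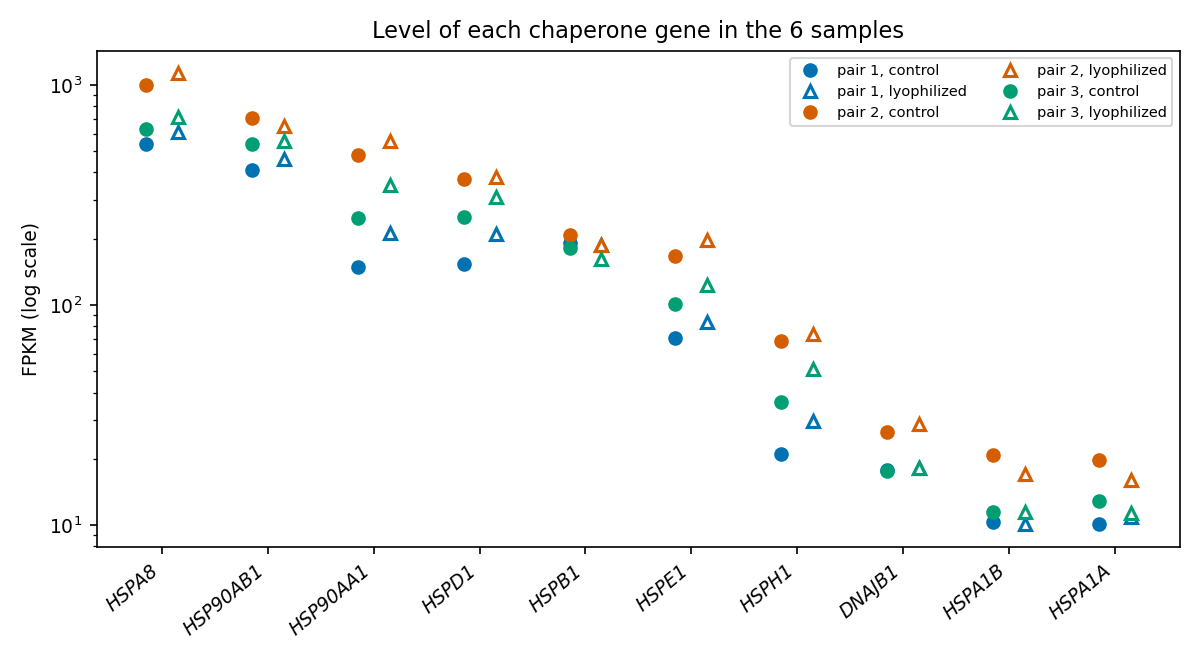
FPKM of the 10 genes on a log axis, with filled circles for controls and open triangles for lyophilized samples, coloured by pair. Pair 2 (orange) is the highest in both groups for 9 of the 10 genes, and HSPB1 is the exception.

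Together the 10 genes made up 0.313% to 0.663% of all FPKM in the controls and 0.355% to 0.653% in the lyophilized samples. The summed level of the 4 inducible members was 59.2, 135 and 78.3 FPKM in controls 1 to 3 and 68.9, 136 and 92.3 FPKM in lyophilized samples 1 to 3. That of the 6 constitutive members was 1510.0, 2938 and 1952 FPKM in the controls and 1769, 3101 and 2218 FPKM in the lyophilized samples. The inducible sum was thus 3.92%, 4.61% and 4.01% of the constitutive sum in controls 1 to 3, and 3.89%, 4.38% and 4.16% in the lyophilized samples. The inducible sum includes HSPA1A and HSPA1B as listed. The ranges of the groups overlapped for both sums and for their ratio.

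HSPA1A and HSPA1B encode nearly the same stress-inducible HSP70 from neighbouring single-exon genes on chromosome 6 (31783291-31785719 and 31795512-31798031, hg19, plus strand). Of the 75-base stretches of the HSPA1A transcript, 73.8% occur without a mismatch in HSPA1B, and 70.2% of those of HSPA1B occur in HSPA1A. The authors kept only reads that mapped to 1 position, so both levels rest on the parts that differ, and neither is certain. HSPA1A had 10.1, 19.8 and 12.9 FPKM in controls 1 to 3 and 10.9, 16.1 and 11.3 FPKM in lyophilized samples 1 to 3. HSPA1B had 10.3, 20.9 and 11.5 FPKM in the controls and 10.1, 17.2 and 11.5 FPKM in the lyophilized samples. For both genes, pair 2 was high in both groups, and the groups overlapped. The log2 difference between lyophilized and control samples was -0.12 ± 0.26 (SE) for HSPA1A and -0.10 ± 0.30 for HSPA1B, neither past the threshold (limma, adjusted p = 0.847 and 0.894). With the pair as a block the 95% intervals, not adjusted, ran from -0.33 to 0.08 and from -0.29 to 0.08 (adjusted p = 0.30 and 0.349). Another 4 records of each gene on alternate contigs were at 0 in every sample. All 1292 records on such contigs were at 0, so these zeros are not particular to HSPA1A and HSPA1B.

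HSPA8, which does the same work in unstressed cells, lies on chromosome 11 (122928200-122932901, minus strand) and had 537, 1003 and 633 FPKM in the controls and 612, 1129 and 715 FPKM in the lyophilized samples. It was above its control in each lyophilized sample, by 0.19, 0.17 and 0.18 on the log2 scale, although the groups overlapped. The mean log2 difference of 0.18, a 1.13-fold higher level, did not pass without the block (SE 0.29, limma, adjusted p = 0.805). It passed with the block (SE 0.037, adjusted p = 0.00822).

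DNAJB1, a DNAJ protein that stimulates the ATPase of HSP70, lies on chromosome 19 (14625582-14629201, minus strand). It had 17.8, 26.5 and 17.5 FPKM in the controls and 18.1, 28.9 and 18.2 FPKM in the lyophilized samples. The groups overlapped, and samples 1 and 3 of both groups were nearly level. The lyophilized sample was above its control in 3 of 3 pairs, by 0.03, 0.13 and 0.05 on the log2 scale. The mean of 0.07 did not pass without the block (SE 0.23, limma, adjusted p = 0.914) or with it (95% interval -0.08 to 0.21, adjusted p = 0.428).

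HSPH1, an HSP110 that exchanges the nucleotide on HSP70, lies on chromosome 13 (31710763-31736117, minus strand). It had 20.9, 68.3 and 36.4 FPKM in the controls and 29.7, 73.5 and 51.3 FPKM in the lyophilized samples. Both groups spread more than 2-fold, and within the pairs the lyophilized sample was higher by 0.50, 0.11 and 0.49 on the log2 scale. The mean log2 difference was 0.37, a 1.29-fold higher level, and passed with the block (SE 0.080, limma, adjusted p = 0.00976) but not without it (SE 0.46, adjusted p = 0.738). HSPH1 was the only inducible member past the threshold with the block.

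Of the HSP90 genes, the stress-responsive HSP90AA1 (chromosome 14, 102547075-102606086, minus strand) had 148, 479 and 248 FPKM in the controls. The lyophilized samples had 213, 553 and 350.3 FPKM. It was higher in the lyophilized sample of every pair, by 0.52, 0.21 and 0.50 on the log2 scale. The mean of 0.41, a 1.33-fold higher level, was the largest difference among the 10 genes and passed with the block (SE 0.061, limma, adjusted p = 0.00219) but not without it (SE 0.46, adjusted p = 0.709). HSP90AB1 (chromosome 6, 44214849-44221614, plus strand) had 408, 707 and 538 FPKM in the controls and 461, 652 and 558 FPKM in the lyophilized samples. Its pair differences were 0.18, -0.12 and 0.05, and their mean of 0.04 passed neither without the block (SE 0.22, limma, adjusted p = 0.955) nor with it (95% interval -0.08 to 0.16, adjusted p = 0.612). The ratio of HSP90AA1 to HSP90AB1 rose within each pair, from 0.363 to 0.462, from 0.678 to 0.849 and from 0.462 to 0.628. The groups overlapped for this ratio too.

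HSPD1 and HSPE1, the subunits of the mitochondrial chaperonin and its lid, lie head to head on chromosome 2 (198351308-198364998, minus strand, and 198364721-198368187, plus strand). Their loci share 278 bases in the files, and the library kit does not mark strand, so that reads from the shared bases cannot be told apart. HSPD1 had 153, 373 and 250.4 FPKM in the controls and 211, 383 and 308 FPKM in the lyophilized samples. HSPE1 had 71.2, 168 and 101 FPKM in the controls and 83.7, 197 and 123 FPKM in the lyophilized samples. Both were higher in the lyophilized sample of every pair, by 0.46, 0.04 and 0.30 for HSPD1 and by 0.23, 0.23 and 0.29 for HSPE1 on the log2 scale. The means of 0.27 and 0.25 passed with the block (SE 0.070 and 0.046, limma, adjusted p = 0.0198 and 0.0047) and not without it (adjusted p = 0.744 and 0.787). The ratio of HSPD1 to HSPE1 stayed between 1.94 and 2.52 over the 6 samples.

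HSPB1 (chromosome 7, 75931875-75933614, plus strand) varied least, with 192, 208 and 181 FPKM in the controls and 188, 187 and 162 FPKM in the lyophilized samples. It was lower in the lyophilized sample of 3 of 3 pairs, by -0.03, -0.16 and -0.16 on the log2 scale. The mean of -0.12 did not pass in either fit (limma, adjusted p = 0.668 without the block and 0.0805 with it). Its unadjusted 95% interval with the block was -0.22 to -0.01.

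In all, 0 of the 10 genes passed the test of lyophilized against control samples without the block, where 0.575% of the 11134 genes tested passed. None had an unadjusted p below 0.05 in that fit. With the block, 5 of 10 were higher and 0 lower, where 15.9% of all genes tested were higher and 14.9% lower. The median log2 difference was 0.12 over the 10 genes and 0.04 over all genes tested. The 10 genes were also more abundant, with a median of 155 FPKM against 10.3 FPKM, and these shares are not matched for level. The count rested in part on pair 3. Without it, HSPH1, HSP90AA1 and HSPD1 passed, and HSPA8 and HSPE1 did not (limma with the block, adjusted p = 0.0874 and 0.0529). Without pair 2, HSP90AB1 passed as well (log2 difference 0.11, adjusted p = 0.0375), where 48.1% of all genes tested passed in either direction, against 30.7% with all pairs and 11.4% without pair 3.

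**Figure D2:**
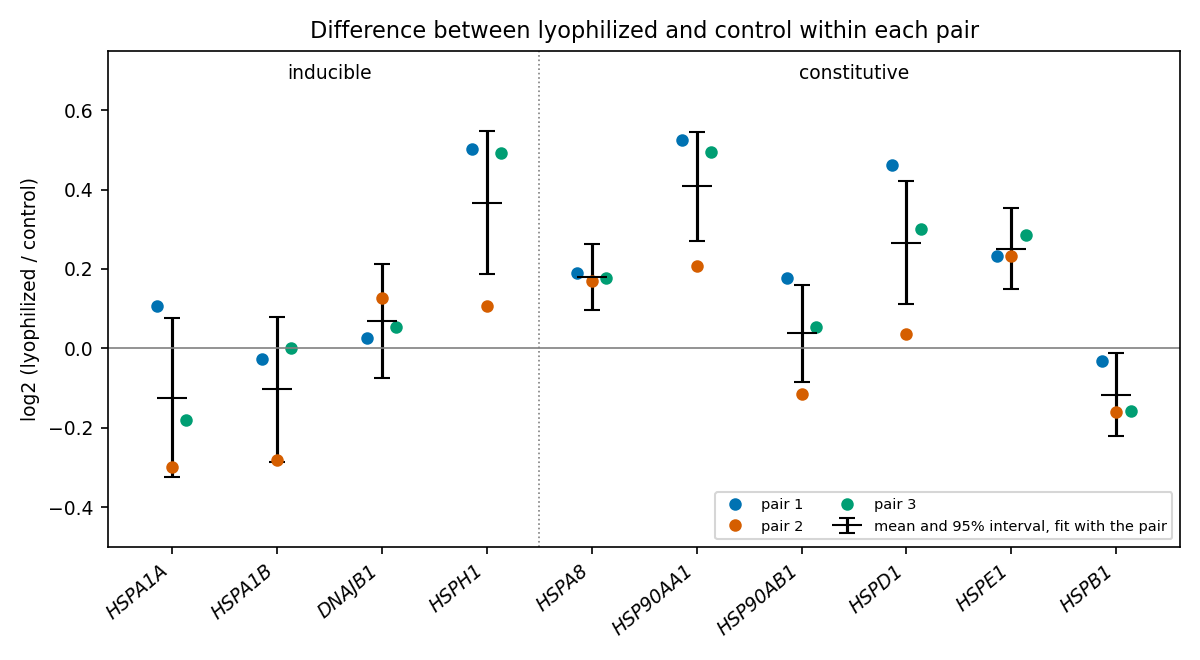
Log2 difference between the lyophilized and the control sample of each pair (coloured points), with the mean and its unadjusted 95% interval from the limma fit with the pair as a block (black). The intervals of HSPH1, HSPA8, HSP90AA1, HSPD1 and HSPE1 lie above 0, that of HSPB1 lies below 0, and the other 4 cross it.

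Base composition moved with these differences. Over 10993 genes with an annotated transcript, the log2 difference fell with the GC content of the transcript (Spearman rho = -0.753 across genes, which share their libraries and are not independent). Within pairs 1, 2 and 3 rho was -0.728, -0.411 and -0.766. The median log2 difference was 0.27 for genes under 42% GC and -0.22 for genes of 58% GC or more. Over the 10 members rho was -0.867. HSPH1, HSPD1, HSP90AA1 and HSPA8, which were higher in the lyophilized samples with the block, had 41.95%, 41.97%, 45.2% and 45.3% GC. HSPA1A, HSPA1B and HSPB1 had 59.8%, 58.8% and 65.5%. HSPE1 stood apart, with 55.9% GC in the transcript whose span was most like the listed locus but 38.9% in its longest coding transcript.

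After a loess correction for transcript GC in each sample, with the block, 3 of the 10 genes were higher and 0 lower, where 9.18% of all genes tested were higher and 6.77% lower. HSP90AA1 was higher by 0.32 (SE 0.051, limma, adjusted p = 0.00623), HSPE1 by 0.40 (SE 0.047, adjusted p = 0.00237) and HSPB1 by 0.21 (SE 0.056, adjusted p = 0.0424). HSPB1 thus changed direction. HSPH1, HSPA8 and HSPD1 no longer passed, at 0.19, 0.09 and 0.09 (adjusted p = 0.0619, 0.117 and 0.280). HSPA1A and HSPA1B moved to 0.095 each (adjusted p = 0.569 and 0.530). With GC taken from each gene's longest coding transcript, HSP90AA1, HSPB1 and DNAJB1 passed (limma, adjusted p = 0.00597, 0.0396 and 0.0224), and HSPE1 did not (-0.0020, adjusted p = 0.986). In that fit 15.8% of all genes tested passed in either direction. HSP90AA1 was the only member that passed, in the same direction, with the block alone and under both corrections.

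**Figure D3:**
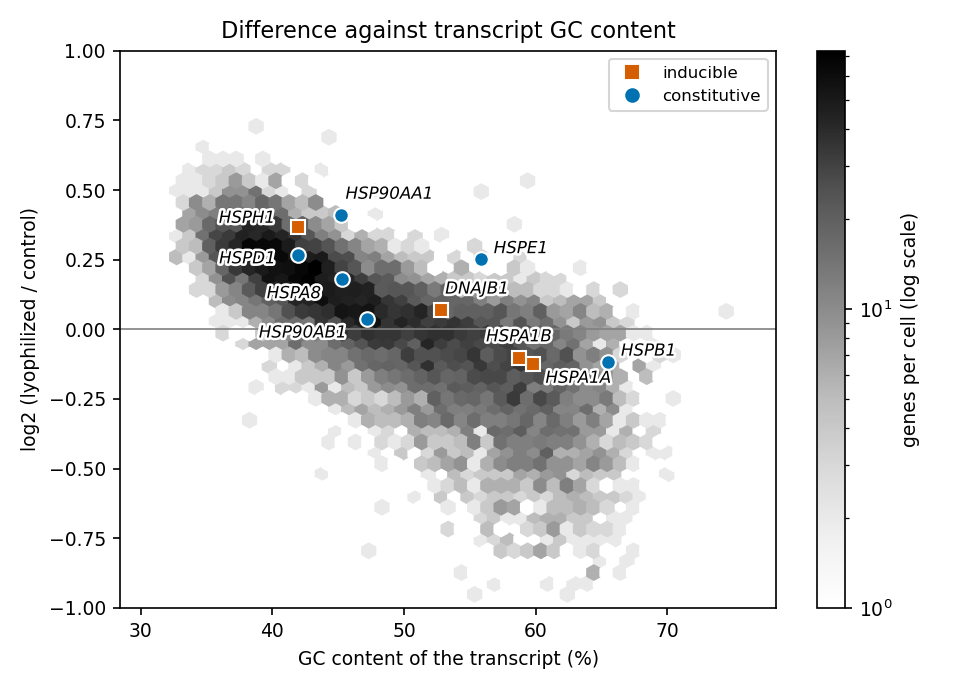
Log2 difference between lyophilized and control samples against transcript GC content for 10993 genes (grey cells, shaded by the number of genes on a log scale), with the 10 members marked. The 79 genes with a difference of 1 or more in size are not drawn. HSP90AA1 and HSPE1 lie at the upper edge of the genes of their GC content, and HSPB1 lies near the upper edge at high GC.

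The inducible members had a lower median log2 difference than the constitutive ones, -0.02 against 0.21, which differ by -0.23. Within pairs 1, 2 and 3 the inducible median was 0.066, -0.088 and 0.027 and the constitutive median 0.211, 0.104 and 0.232. The gap was -0.145, -0.192 and -0.205, with a mean of -0.18 ± 0.03 (SD, n = 3 pairs), and was given no test because the genes of a class are not replicates. It rested on the HSP70 twins. Without HSPA1A and HSPA1B the gap was 0.00295, and after the GC correction it was -0.02. The transcripts of HSPA1A, HSPA1B and DNAJB1 had 59.8%, 58.8% and 52.8% GC and that of HSPH1 41.95%. The constitutive transcripts lay between 41.97% and 47.2% except HSPE1 (55.9%) and HSPB1 (65.5%). The part of base composition in the gap was not tested beyond this correction.

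The largest differences lay between the pairs and not between the groups. HSP90AA1 was 3.23 times higher in control 2 than in control 1, and 2.59 times higher in lyophilized sample 2 than in lyophilized sample 1. HSPH1 was 3.26 and 2.47 times higher, HSPE1 2.36 times higher in both groups and HSPD1 2.43 and 1.81 times higher. HSPA1B (2.03 and 1.70 times), HSPA1A (1.96 and 1.47 times) and HSPA8 (1.87 and 1.85 times) came next. HSP90AB1 was 1.73 and 1.41 times higher, and DNAJB1 1.49 and 1.59 times. HSPB1 had 1.08 and 0.994 times the level. Pair 2 was thus the highest pair in both groups for 9 of the 10 genes, inducible and constitutive alike, where 25.2% of all genes tested had this order.

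Averaged over both groups, pair 2 exceeded pair 1 by 1.53 on the log2 scale for HSP90AA1 and by 1.502 for HSPH1, which placed them at the 99.9th and 99.8th percentile of all genes tested. HSPE1 (1.24), HSPD1 (1.07), HSPA8 (0.89), HSPA1B (0.89) and HSPA1A (0.76) lay above the 95th percentile, which was 0.745. HSP90AB1 (0.64) and DNAJB1 (0.62) lay at the 92nd and 91st percentile, and HSPB1 (0.05) at the 44.6th. The median over all genes was 0.11. This contrast follows the order of the members' own pairs, which favours high percentiles. By the range between the pairs, which picks no pair, HSP90AA1, HSPH1, HSPE1 and HSPD1 lay at the 99.5th, 99.4th, 98.5th and 97.2nd percentile. HSPA8 (94.6th), HSPA1B (94.5th), HSPA1A (90.6th), HSP90AB1 (84.9th), DNAJB1 (83.7th) and HSPB1 (25.2nd) lay below the 95th. Pair 3 lay between the others for HSPH1, HSP90AA1, HSPD1, HSPE1, HSP90AB1, HSPA8, HSPA1A and HSPA1B, above pair 1 by 0.79 to 0.17. DNAJB1 was level with pair 1 (-0.0072), and HSPB1 lay below it (-0.15).

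A limma F test of the pair number, with the groups as the other term, passed for 10 of 10 members, where 45.2% of all genes tested passed. This test was chosen after the values had been seen. The share of all genes was not computed at levels matched to the members, whose median was 155 FPKM against 10.3 FPKM for all genes tested. The adjusted p ran from 8.24e-06 for HSPE1 to 0.0369 for HSPB1. Without pair 2, 7 of 10 passed, and HSPA1A, HSPA1B and DNAJB1 did not (adjusted p = 0.0685, 0.0763 and 0.937). Without pair 3, HSPB1 did not pass (adjusted p = 0.623). The share of all genes past this F test with a pair left out was not computed, so these counts have no background beside them. The samples of a pair may come from the same culture, so these p-values measure only the spread within pairs. What set the pairs apart was not tested. The part of depth, which was 1.89 and 1.84 times that of control 1 in lyophilized samples 1 and 2, was not tested either.

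**Figure D4:**
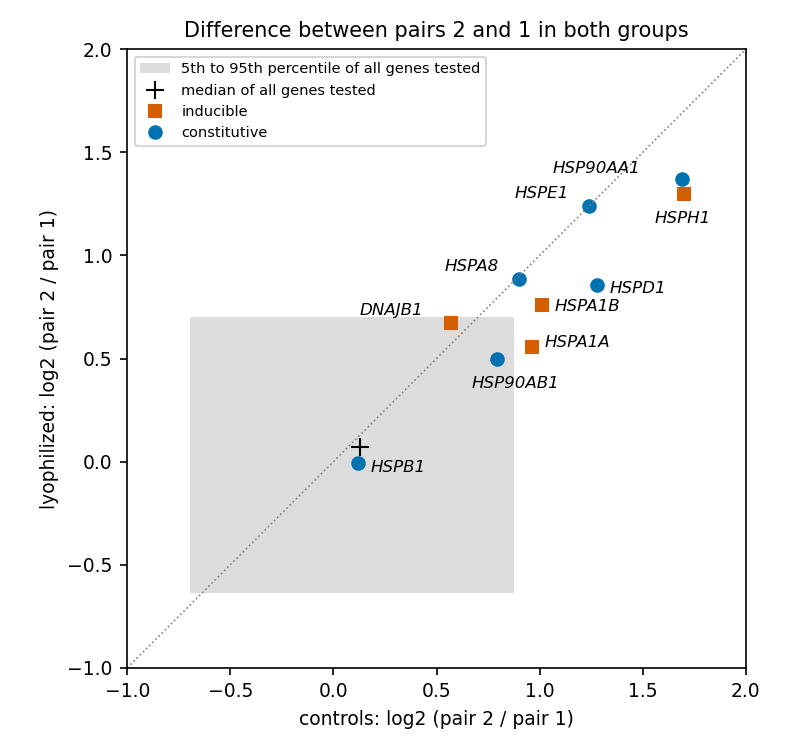
Log2 difference between pairs 2 and 1 in the controls (x axis) and in the lyophilized samples (y axis). The grey box spans the 5th to the 95th percentile of all genes tested on each axis, the dotted line marks equal differences, and all members but HSPB1 lie at 0.499 or more on both axes.

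Other chaperones and regulators were taken from a list of 110 genes, of which 97 passed the filter on low values. None passed without the block. With it, 28 were higher, 8 lower and 61 not past the threshold, with a median log2 difference of 0.13. These are 28.9% and 8.25% of the list, beside 15.9% and 14.9% of all genes tested. After the GC correction, 8 were higher and 3 lower, which are 8.25% and 3.09% beside 9.18% and 6.77% of all genes. The 13 genes left out peaked at 0.741 FPKM or less and include BAG3, HSPA2 and most small heat shock proteins. HSF1 and HSF2, the transcription factors of the heat shock response, moved in opposite directions. HSF1 was lower in the lyophilized samples by -0.35 (SE 0.058, limma with the block, adjusted p = 0.00319), from 44.2, 33.9 and 37.6 FPKM in the controls to 33.3, 27.9 and 29.0 FPKM. HSF2 was higher by 0.34 (SE 0.11, adjusted p = 0.0448), from 5.66, 8.78 and 7.002 FPKM to 8.48, 8.95 and 9.31 FPKM. The HSF1 transcript has 63.9% GC and that of HSF2 40.5%, and neither gene passed after the GC correction (-0.05, adjusted p = 0.476, and 0.11, adjusted p = 0.351). HSF1 was not higher in pair 2, which lay below pair 1 by -0.32 on the log2 scale. HSF4, a low-level relative with 2.35, 1.14 and 1.46 FPKM in the controls, was lower by -0.50 with the block (limma, adjusted p = 0.0456) and did not pass after the correction (-0.19, adjusted p = 0.392).

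Of the 9 other HSP70 and HSP110 genes tested, 4 were higher (44.4%, beside 15.9% of all genes tested) and 1 lower (11.1%, beside 14.9%) with the block. After the GC correction 1 was higher (11.1%, near the 9.18% of all genes) and 0 lower (beside 6.77%). The most abundant, the endoplasmic reticulum HSP70 HSPA5, did not pass, at 0.06 (limma, adjusted p = 0.444), while its controls 1 to 3 had 89.9, 187 and 116 FPKM. HSPA4L, an HSP110, and HSPA13 were higher by 0.36 and 0.35 (adjusted p = 0.0123 and 0.0227). Neither passed after the GC correction (adjusted p = 0.057 and 0.928). HSP90B1, the HSP90 of the endoplasmic reticulum, was higher by 0.33 (adjusted p = 0.0122, after the correction 0.108). It too was highest in pair 2, with 298 and 313 FPKM against 143 and 211 FPKM in pair 1. Of the 37 other DNAJ proteins tested, 9 were higher (24.3%) and 3 lower (8.11%) with the block, and 2 (5.41%) and 1 after the GC correction, beside 9.18% and 6.77% of all genes. DNAJA1, the most abundant, was higher by 0.29 (limma with the block, adjusted p = 0.00986), and DNAJC13 and DNAJC2 by 0.47 each (adjusted p = 0.0186 and 0.00508). DNAJC2, a cochaperone at the ribosome, was the one of these that passed after the GC correction (0.22, adjusted p = 0.0354).

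The cytosolic chaperonin TRiC and its partner prefoldin, which fold actin and tubulin, had 7 of 15 genes higher (46.7%, beside 15.9% of all genes) and 0 lower with the block, and 3 higher (20.0%, beside 9.18%) and 0 lower after the GC correction. PFDN5 (0.20), PFDN4 (0.35) and VBP1 (0.34) passed with it (limma, adjusted p = 0.0173, 0.00492 and 0.00294). After the GC correction PFDN5 passed (0.28, adjusted p = 0.00341). PFDN4, at 30.7% GC, and VBP1, at 36.6% GC, did not (-0.03 and 0.03). Of the 16 HSP90 cochaperones, 3 were higher (18.8%, near the 15.9% of all genes) and 1 lower (6.25%, beside 14.9%) with the block. After the GC correction 0 were higher (beside 9.18% of all genes) and 2 lower (12.5%, beside 6.77%). PTGES3, or p23, the most abundant, did not pass with the block (0.03, limma, adjusted p = 0.62) but was lower after the GC correction (-0.20, adjusted p = 0.0232). CHORDC1 was higher by 0.35 with the block (adjusted p = 0.0314, after the correction 0.9747). AHSA2, a relative of the HSP90 ATPase activator, was lower by -0.40 with the block and by -0.34 after the GC correction (limma, adjusted p = 0.00566 and 0.00845). Of the 13 HSP70 cochaperones, 1 was higher and 1 lower with the block (7.69% each, beside 15.9% and 14.9% of all genes). ST13, or Hip, was higher by 0.23 and BAG6 lower by -0.30 (limma with the block, adjusted p = 0.0206 and 0.00414). Neither passed after the GC correction (adjusted p = 0.819 and 0.315). After that correction, 2 others of this role were higher (15.4%, beside 9.18% of all genes) and 0 lower (beside 6.77%). HSPB11, the only gene above the filter on the list of other small heat shock proteins, was higher by 0.24 (limma with the block, adjusted p = 0.0103, after the correction 0.0958). It carries the HSPB name, and whether it acts as a chaperone was not examined.

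**Figure D5:**
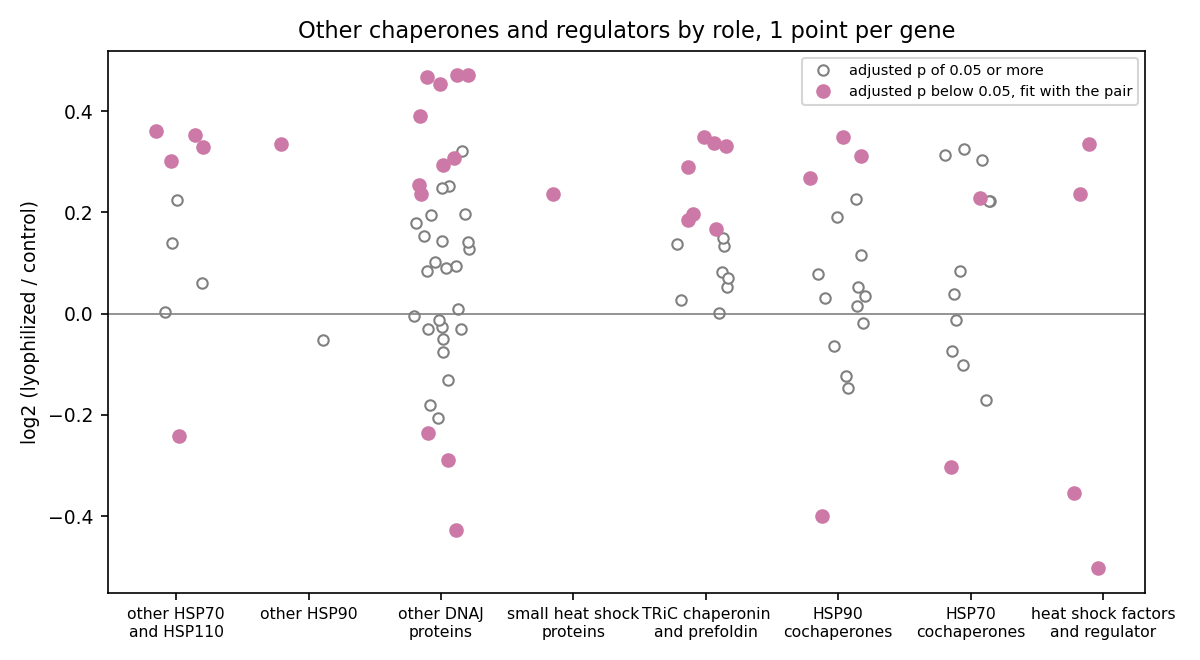
Log2 difference between lyophilized and control samples for the 97 other chaperones and regulators tested, grouped by role, with genes past the threshold of the limma fit with the pair as a block filled in. The points spread sideways only for legibility, 28 filled points lie above 0 and 8 below, and the TRiC and prefoldin group has none below 0.

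The differences between the pairs were shared by part of this list. Between the pairs, 58 of the 97 genes (59.8%) passed the F test, beside 45.2% of all genes tested, and 54 (55.7%) were highest in pair 2 in both groups, beside 25.2%. The HSP90 cochaperones had 14 of 16 genes (87.5%) past this test and a median excess of pair 2 over pair 1 of 0.69 on the log2 scale, led among the named ones by CHORDC1 at 1.15. TRiC and prefoldin had 11 of 15 (73.3%) past the test and a median of 0.57, although PFDN5 was lower in pair 2, by -0.52. The HSP70 cochaperones had 3 of 13 (23.1%) past the test and a median of 0.20, close to the 0.11 of all genes.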

How the data were processed

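RNA-Seq reads (75 bases, single-end, TruSeq v2 kit) of 3 control and 3 lyophilized GM12873 samples were mapped by the authors to hg19 with TopHat2 2.0.7, keeping reads with 1 position, and the authors deposited FPKM values computed with Cufflinks, whose version and annotation are not given in the sources used here. CASAVA 1.4 is named in the submitters' processing notes. Without read counts, no counting interval was computed. The 24934 records were reduced to 23284 symbols, 1 record each, chosen by its mean FPKM as the highest. Symbols of poly(A)-free small RNAs were removed.

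Genes whose mean FPKM exceeded 1 in either group entered limma 3.58.1 (R 4.3.3) on log2(FPKM + 0.1), with a variance trend and the test's p-values under Benjamini-Hochberg adjustment over all genes at 0.05. Fold changes are on that scale, which understates changes of low genes. Condition was the only term of the main design, since the study's own test had no pairing. Another fit had the pair as a block, and a further one also subtracted a loess curve (span 0.3, degree 2) over transcript GC in each sample. The labels pair the samples, and their deviations from the group means correlated at 0.716, 0.603 and 0.476 within pairs 1 to 3. Whether pairs are separate cultures is not stated, so p-values measure the spread between these samples, which may be technical. For other measures that differed between pairs, the paper proposes culture conditions or the state of the cells at harvest.

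GC content and the 75-base stretches came from GENCODE v44 transcripts on GRCh37, coding where possible and with the span most like the listed locus. This replaced the longest coding transcript, kept as an alternative, after results with it had been seen. Relative depth was the most common ratio of values below 0.1 FPKM between samples, held by 21.6% to 26.2% of the records compared. The raw reads listed in the paper were also fewest for control 1 and most for lyophilized sample 1. Python 3.11.15, numpy 2.4.6, pandas 2.3.3 and matplotlib 3.10.9 were used. The fits without and with the block and the test between pairs were tried on simulated data, and the GC-corrected fit was not.

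The members and lists were chosen with earlier results of these data known. Named are the 10 members, HSF1, HSF2 and, for each other role, the most abundant gene and up to 2 genes with the largest difference among those past the threshold with the block and changed alike in all 3 pairs. BAG3, HSPA2 and the markers were named after their values were seen. A further B-cell marker of the list is not reported here.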

Additional observations from a re-analysis of the deposited data

How the results depend on the processing

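Without the block, 64 of 11134 genes passed, but 0 without the filter on low values and 0 whenever 1 sample was left out. With the replicate block 3423 genes passed, with 5 members and 36 of the other chaperones, and with the replicate block and GC correction 1753, with 3 members and 11 other chaperones. The replicate block left the log2 differences unchanged by construction and narrowed their errors. Under the other settings, 0 members and 0 other chaperones passed. Of 160 alternative values of the members' log2 differences, 136 kept direction and side of the threshold, 17 changed direction and 8 passed, of which 1 (HSPB1 with the block and the correction) also changed direction. With the replicate block and GC correction, HSPA1A moved to 0.0949, HSPA1B to 0.095 and HSPB1 to 0.207. With 1 sample left out and no block, which leaves a pair incomplete, the range was -0.15 to 0.26 for DNAJB1, -0.0485 to 0.80 for HSPH1, -0.078 to 0.44 for HSPA8, -0.16 to 0.23 for HSP90AB1, -0.0651 to 0.58 for HSPD1, -0.0675 to 0.58 for HSPE1, -0.34 to 0.14 for HSPA1A, -0.33 to 0.21 for HSPA1B, 0.00287 to 0.85 for HSP90AA1 and -0.16 to -0.05 for HSPB1.

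The gap between inducible and constitutive medians ranged from -0.31 to -0.12 with 1 sample left out. It was -0.0162 with the replicate block and GC correction and 0.00295 without HSPA1A and HSPA1B. With HSP90AA1 and HSPB1 counted as inducible it was -0.232. Members higher with the replicate block numbered 3 with either GC correction, where 15.9% and 15.8% of all genes tested passed in either direction. They numbered 3 to 6 with 1 pair left out, where 11.4% to 48.1% of all genes passed. These settings were added after seeing the data. The cause of these shifts was not tested. The tables hold no counts, so the precision of the low inducible members could not be set against their depth.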
